A study of Mus musculus with 8 samples.

Results

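The tripartite motif (TRIM) proteins are a large family of ubiquitin ligases built from a RING finger, B-boxes and a coiled coil, most often followed by a domain that picks the target. Many act in innate immunity, where they tag virus sensors and signalling adaptors or block viral capsids, and a subset is induced by interferon. Others act on chromatin (the TIF1 group) or in striated muscle (the MuRF group, and Trim72 in membrane repair). Genes were taken as members where a gene probe carried a RefSeq accession of a symbol made of Trim and a digit, and Trim63, a muscle atrophy ligase, was left out. This gave 47 genes with 76 probes, of 35078 gene probes on the array. A further 21 such genes of the mouse annotation had no matched probe and were not analysed here, among them Trim5, Trim26, Trim38, Trim55 and Trim72.

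Hearts were compared 8 h after an intraperitoneal injection of 5 mg/kg lipopolysaccharide (LPS), the bacterial cell-wall component that activates Toll-like receptor 4, in 4 mice, or of saline in 4 mice. The 8 animals were 12-week-old wild-type females of C57BL/6, a standard inbred strain, and each gave 1 single-colour array of total RNA from pieces of the PBS-perfused heart. In such bulk RNA, fewer cells of a type and less RNA per cell cannot be told apart. All 9 cardiomyocyte markers tested, Myh6 and Tnnt2 among them, were above background on every array.

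Most gene probes lay close to background: the share brighter than the negative-control limit was 37.3% to 42.6% with LPS, against 39.7% to 46.9% with saline. The array LPS 3 stood apart from its group. Its correlation with saline 3 over all tested probes (0.960) was about its lowest correlation with another LPS array (0.961). The other LPS arrays reached at most 0.917 to 0.920 with any saline array. A list of 20 tested interferon-stimulated genes averaged 1.62 log2 units over saline on LPS 3, against 2.68 to 2.79 on the other LPS arrays. The called TRIM genes and most of the gene lists are therefore given with and without LPS 3. LPS 2 to 4 came from a separate slide series, and LPS 1 shared its slide series with the saline arrays. The scan days were mixed, with LPS 2 to 4 and saline 3 and 4 on the first, LPS 1 and saline 2 on the second and saline 1 alone on the last.

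Of the 47 genes, 23 were tested, meaning that at least 1 probe exceeded background on 4 or more of the 8 arrays. Of these, 20 did so on all 8 arrays. Trim12c was above background on all 4 LPS arrays and 2 saline arrays, Trim30d on all 4 LPS arrays and 3 saline arrays, and Trim3 on 2 LPS arrays and all 4 saline arrays. The other 24 genes were too dim. In 19 of them no probe exceeded background on any array. They were Trim9, Trim10, Trim12a, Trim14, Trim17, Trim30b, Trim31, Trim32, Trim36, Trim42, Trim50, Trim52, Trim59, Trim60, Trim61, Trim65, Trim66, Trim68 and Trim69. The remaining 5 (Trim13, Trim16, Trim21, Trim37 and Trim62) were above it on 1 to 3 arrays.

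With LPS, 7 of the 23 tested TRIM genes rose and 1 fell, while 15 did not pass an adjusted p of 0.05 (limma, with p-values adjusted by Benjamini-Hochberg across every gene and unnamed probe in the fit). The risen genes were Trim30a, Trim56, Trim34a, Trim30d, Trim25, Trim12c and Trim2, and the fallen one was Trim35. Among all 8874 named genes tested, 9.74% rose and 9.78% fell, 19.5% in all. The median log2 change was 0.19 over the 23 TRIM genes and -0.05 over all named genes. With 1 array left out the TRIM median was 0.05 (without saline 1) to 0.27 (without saline 3), and with the scan day as a block it was 0.07. When arrays were scaled to the median of all gene probes, these medians were -0.14 and -0.35, so the sign of the TRIM median depended on the scaling while its position above the median of all genes did not. Of the 7 risen genes 6 belong to the TRIM proteins known from interferon responses and virus or LPS sensing. This list has 14 members on the array and 7 tested, of which only Trim8 did not rise. Its other members on the array, Trim21 among them, were too dim to test. Trim12c and Trim30d were above background on fewer saline than LPS arrays.

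**Figure D1:**
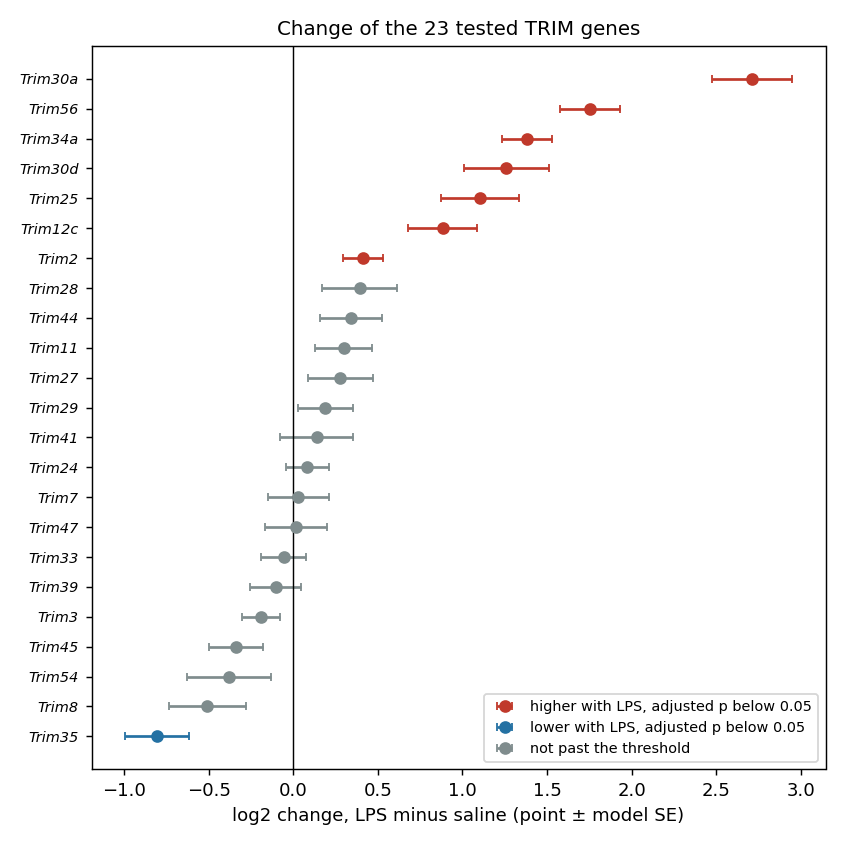
Log2 change (LPS minus saline, horizontal axis) of each of the 23 tested TRIM genes, as a point with the standard error of the model, from 4 LPS and 4 saline arrays. Trim30a is at the top with 2.71, 7 genes are past the threshold on the higher side, and Trim35 alone is past it on the lower side.

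Genomic position and promoter sequence were the features set beside these changes. In the mouse annotation 11 Trim genes lie among 21 genes of any kind between Trim6 and Trim30e-ps1 on chromosome 7, the cluster that holds the mouse relatives of TRIM5, a retroviral capsid restriction factor of primates. Of these 11, 5 had no matched probe and 2 (Trim12a and Trim30b) were near background. The other 4, Trim34a, Trim12c, Trim30a and Trim30d, were tested and all rose, where 9.74% of all named genes did. Trim12c and Trim30d were above background on every LPS array but would not have met the filter on the saline arrays alone. Both left the tested genes when all 8 arrays had to be above background. Trim56 (chromosome 5), Trim25 (chromosome 11) and Trim2 (chromosome 3) rose from other sites.

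**Figure D2:**
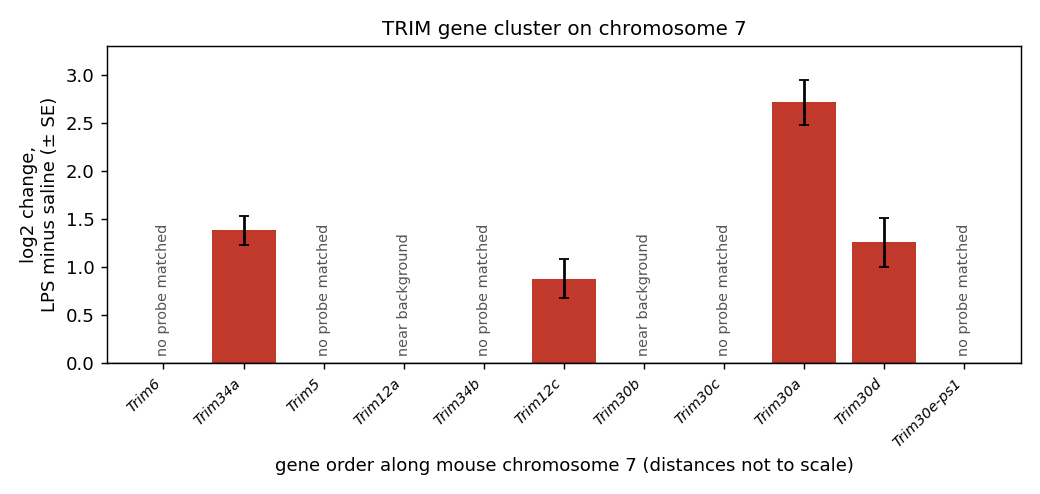
TRIM genes of the chromosome 7 cluster in the order of the annotation (horizontal axis, distances not to scale) with the log2 change, LPS minus saline, as bars with the standard error of the model (4 LPS and 4 saline arrays). The 4 measured genes have bars of 0.88 to 2.71, and the remaining positions had no matched probe or were near background.

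The interferon-stimulated response element is a short promoter site through which interferon induces many of its target genes. Its core, GAAA followed by any 2 bases and GAAA again, on either strand, was searched in the RefSeq promoters (250 bases before to 50 after each gene start, GRCm38.p6), which held 35 of the 47 genes. It occurred at 5 of the 7 risen genes (Trim12c, Trim30a, Trim30d, Trim34a and, at 1 of its 5 listed starts, Trim2), at none of 10 tested genes that did not pass, and at 2 of 18 untested ones, Trim12a and Trim21. Among all 27025 genes with a listed promoter, 3.99% held it. Of the tested named genes 3.74% did, and of the 671 of them that rose 9.99% did. The promoters of Trim25 and Trim56 had no such letters in this window, and Trim35 was not in the table. Except for Trim2, the risen genes that held the core lie in the chromosome 7 cluster. All windows with the core are shown, those of the untested Trim12a and Trim21 included. Capitals mark the core, and each runs 5′ to 3′ on the strand of its gene.
Trim30a, chr7:104465210-104465239, minus strand: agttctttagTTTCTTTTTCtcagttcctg
Trim30a, second start, chr7:104446104-104446133, minus strand: ttgtttttagTTTCTTTTTCtcagttcctg
Trim30d, chr7:104507871-104507900, minus strand: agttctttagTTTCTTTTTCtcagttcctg
Trim12c, chr7:104353359-104353388, minus strand: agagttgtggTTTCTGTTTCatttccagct
Trim12a, chr7:104315466-104315495, minus strand: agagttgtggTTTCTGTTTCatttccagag
Trim34a, chr7:104244457-104244486, plus strand: tggtttggagTTTCAGTTTCttttctctgc
Trim21, chr7:102565447-102565476, minus strand: ctgagagGAAACTGAAAGTGAAAtttggac
Trim2, chr3:84212791-84212820, minus strand: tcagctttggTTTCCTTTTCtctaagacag

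In Trim21 the capitals cover 2 overlapping cores on the gene strand, and in the other windows the core lies on the opposite strand. The cores of Trim30a (first listed), Trim30d and Trim12c lie before the gene start and those of the others after it. The 30 bases of the first Trim30a start and of Trim30d were identical. Their whole promoters were identical in 277 of 305 alignment columns (90.8%), and those of Trim12a and Trim12c in 247 of 340 (72.6%). Columns with a gap count in both totals. The core begins at -29 from the gene start in Trim12c and at 11 in Trim12a, so these windows are offset. The shares therefore do not show which pair is more alike. The 100 bases before each start show how alike the Trim30 pair is, again with the core in capitals.
Trim30a, chr7:104465194-104465293, minus strand: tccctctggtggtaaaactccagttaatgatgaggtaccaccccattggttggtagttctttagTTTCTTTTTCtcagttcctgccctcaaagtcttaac
Trim30d, chr7:104507850-104507949, minus strand: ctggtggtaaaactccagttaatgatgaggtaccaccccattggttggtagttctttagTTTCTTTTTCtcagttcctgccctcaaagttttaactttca

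Paralogs this close may also share transcript sequence, and the probe sequences are not in the files used here, so how far the Trim30, Trim12 and Trim34 probes also bind RNA of their near copies was not tested. Of the NF-kB motifs searched, GGGA, any 3 bases and CCC occurred at none of the 7 risen genes, at 2 of the 10 that did not pass and at 8.93% of all tested named genes with a promoter. The looser GGG, any 5 bases and CC, which takes in each match of the stricter one, occurred at 5 of 7 and 8 of 10, against 72.3% of the tested named genes.

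Trim30a, which in mouse restrains Toll-like receptor signalling by removing the adaptors TAB2 and TAB3, had the largest change of the 23 TRIM genes. Its log2 intensity after background correction and quantile normalization (probe mMC024994) was 11.01, 11.14, 9.93 and 10.82 on LPS arrays 1 to 4, against 7.88, 7.97, 8.09 and 8.13 on saline arrays 1 to 4. Every LPS array lay above every saline array, and LPS 3 was the lowest LPS array. The group means were 10.73 ± 0.55 with LPS and 8.02 ± 0.11 with saline (SD, n = 4 each), a 6.56-fold difference (log2 change 2.71, SE 0.24; limma adjusted p = 6.80e-05). Without LPS 3 the log2 change was 2.99. Trim30d, its neighbour, was at 7.79, 8.12, 6.97 and 8.21 with LPS, against 6.24, 6.48, 6.65 and 6.69 with saline, again with no overlap and with LPS 3 closest to saline. It rose by 1.26 on the log2 scale (SE 0.25; limma adjusted p = 0.00741), or 1.54 without LPS 3.

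Trim34a, whose human counterpart assists TRIM5 in capsid restriction, was at 8.24, 8.65, 8.02 and 8.46 with LPS, against 6.94, 6.94, 7.09 and 6.87 with saline. The groups did not overlap and the saline arrays lay close together. The means were 8.34 ± 0.27 and 6.96 ± 0.09 (SD, n = 4 each), a log2 change of 1.38 (SE 0.15; limma adjusted p = 0.000242). Without LPS 3 the change was 1.5. A second Trim34a probe was above background on all 4 LPS arrays and on no saline array, so that its saline level is only an upper bound, and it gives no separate test. The other 2 Trim34a probes exceeded background on no array. Trim12c, another mouse relative of TRIM5, was at 6.99, 7.78, 7.0 and 7.78 with LPS and at 6.62, 6.54, 6.47 and 6.39 with saline. LPS 2 and LPS 4 were high, while LPS 1 and LPS 3 lay nearer the saline arrays. Its log2 change was 0.88 (SE 0.20; limma adjusted p = 0.0146), or 1.02 without LPS 3. This rests on 1 probe, the other Trim12c probe being above background on no array. Trim30a, Trim30d, Trim25 and Trim56 each had only 1 probe on the array.

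Trim56, a ligase of the STING and Toll-like receptor 3 antiviral pathways, was at 9.84, 9.999, 9.47 and 10.39 with LPS, against 8.14, 8.21, 8.08 and 8.26 with saline. The separation was wide on every array and least on LPS 3. The means were 9.93 ± 0.38 and 8.17 ± 0.08 (SD, n = 4 each), a 3.37-fold difference (log2 change 1.75, SE 0.18; limma adjusted p = 0.000182). Without LPS 3 it was 1.91. Trim25, which modifies the RNA sensor RIG-I, was at 9.61, 9.60, 9.39 and 9.98 with LPS, against 7.84, 8.93, 8.76 and 8.63 with saline. Saline 1 lay well below the other saline arrays. The log2 change was 1.10 (SE 0.23; limma adjusted p = 0.00916), 1.19 without LPS 3, and 0.87 with saline 1 left out, the lowest of the values with 1 array omitted.

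Trim2, a ligase known from neurons, where it controls neurofilament turnover, had the smallest rise. It was at 7.15, 7.41, 7.54 and 7.39 with LPS, against 6.92, 6.98, 6.93 and 7.0 with saline. The groups did not overlap, and LPS 3 was the highest array, unlike in the genes above. The log2 change was 0.41 (SE 0.12; limma adjusted p = 0.0343). This call ended without any 1 of the arrays other than LPS 1 (adjusted p 0.0645 to 0.0869). A second probe of Trim2 gave -0.11 (SE 0.18; adjusted p = 0.699 in a limma fit over all probes), so its 2 kept probes disagreed. Trim3, the other tested member of the cytoskeletal group of Trim2, did not pass (-0.19; limma adjusted p = 0.263).

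Trim35, first described in mouse blood cell differentiation and later linked to the regulation of IRF7, was the gene that fell. It was at 9.02, 8.99, 9.55 and 9.13 with LPS, against 10.05, 9.88, 9.60 and 10.39 with saline. All LPS arrays were below all saline arrays, but LPS 3 (9.55) and saline 3 (9.60) nearly met. The means were 9.17 ± 0.26 and 9.98 ± 0.33 (SD, n = 4 each), a log2 change of -0.81 (SE 0.19; limma adjusted p = 0.0157). A second probe gave -0.57 (SE 0.19; adjusted p = 0.0631 in a limma fit over all probes). Without LPS 2 the adjusted p was 0.0515, and without LPS 3 the change was -0.94 (0.00584).

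**Figure D3:**
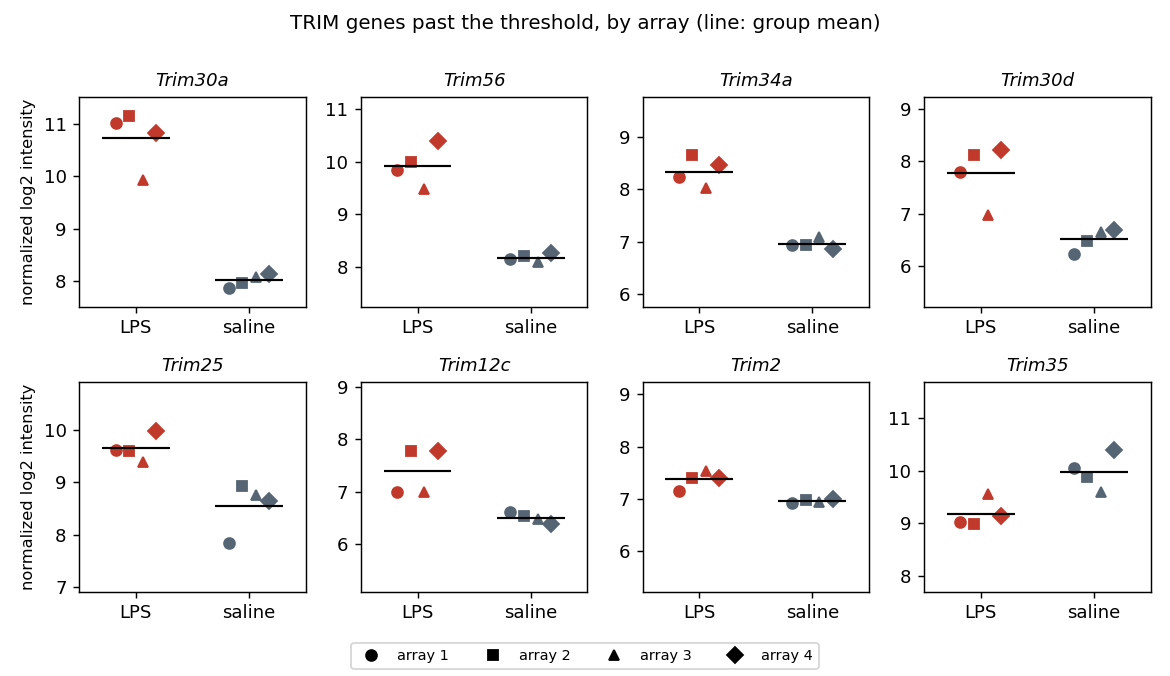
Normalized log2 intensity (vertical axes, each spanning 4 log2 units) of the 8 TRIM genes past the threshold on each LPS array and each saline array, with the group mean as a line. LPS and saline points do not overlap in any of the 8 genes, and the triangle of LPS 3 is the lowest LPS point of Trim30a, Trim56, Trim34a, Trim30d and Trim25.

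Of the 23 tested TRIM genes, LPS and saline arrays did not overlap in 7 on the higher side and 1 on the lower side, the same 8 genes that passed. Over all named genes 11.2% were apart on the higher side and 12.3% on the lower side. LPS 3 was the lowest LPS array in 5 of the 7 risen genes and LPS 1 in the other 2. Without LPS 3, 7 of the 8 calls were kept, Trim2 losing its call (adjusted p = 0.0649), and Trim45 was added (-0.49, adjusted p = 0.0277). Among the 5 arrays scanned on the first day, Trim30a, Trim34a and Trim56 passed, with 2.53, 1.4 and 1.79 on the log2 scale. There Trim12c was at 1.09, Trim30d at 1.10, Trim25 at 0.96, Trim2 at 0.48 and Trim35 at -0.77 (adjusted p 0.0505 to 0.163). On the second day LPS 1 minus saline 2 had the same sign as the full comparison in all 8. With the slide series as a block, where the estimate rests on LPS 1, the same 3 genes passed. There Trim25 (1.07), Trim30d (1.28) and Trim35 (-0.96) were about as large as over all arrays, while Trim12c was at 0.48 (adjusted p = 0.369) and Trim2 at 0.19 (adjusted p = 0.534).

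Genes of the chromatin group did not pass. Trim28, the corepressor that silences retroelements with zinc finger proteins, was at 9.78, 9.75, 9.57 and 8.93 with LPS, against 8.87, 8.95, 9.06 and 9.59 with saline. LPS 4 and saline 4 each lay apart from their groups towards the other. The log2 change was 0.39 (95% interval -0.10 to 0.88; limma adjusted p = 0.248), and it was -0.05 under median scaling over all gene probes. Trim24, a nuclear receptor coregulator, was at 7.30, 7.12, 7.31 and 7.41 with LPS, against 7.04, 7.24, 7.43 and 7.09 with saline (log2 change 0.08, 95% interval -0.20 to 0.37). Trim33, which acts on SMAD4 in TGF-beta signalling, was at 7.05, 7.09, 7.45 and 7.25 with LPS, against 7.17, 7.15, 7.25 and 7.49 with saline (-0.06, 95% interval -0.35 to 0.24). In both genes the groups overlapped. Of 10 tested partners of TRIM28 in gene silencing, such as Setdb1 and Hdac1, none passed (median -0.16). The smallest adjusted p was that of the remodeller Chd4 (-0.43, SE 0.15; limma adjusted p = 0.0701), which passed without LPS 3 (-0.54; adjusted p = 0.0209).

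Trim54 (MuRF3), a ligase of the muscle Z-disc and microtubules, was the muscle member measured. It was at 10.74, 11.27, 10.83 and 11.44 with LPS, against 10.94, 11.46, 12.11 and 11.31 with saline. Saline 3 was the highest and the groups otherwise mixed. The log2 change was -0.38 (95% interval -0.94 to 0.17; limma adjusted p = 0.321). It was -0.16 without saline 3 (adjusted p = 0.622) and -0.30 without LPS 3. Under median scaling over all gene probes, which moved the median of all named genes to -0.35, it was -0.79 and passed (0.0228). Trim32, a muscle ligase whose human form is mutated in limb-girdle dystrophy, and Trim50 were near background. Of 14 tested membrane repair genes that work beside Trim72, none rose, and the caveolar genes Cav1 (-1.62, SE 0.33; limma adjusted p = 0.00814) and Cavin4 (-1.16, SE 0.29; limma adjusted p = 0.0214) fell. The share that fell, 2 of 14, is near that of all named genes (9.78%), and the list had a median of 0.10. Without LPS 3 the same 2 genes fell, where 11.9% of all named genes did, and the median was 0.09.

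Trim8, which promotes NF-kB activation by TNF and interleukin-1, had a log2 change of -0.51 (SE 0.23; limma adjusted p = 0.153) and overlapping groups. The other 10 genes that did not pass were Trim3, Trim7, Trim11, Trim27, Trim29, Trim39, Trim41, Trim44, Trim45 and Trim47, with log2 changes from -0.34 (Trim45) to 0.34 (Trim44), and LPS and saline arrays overlapped in each. Trim41 had a second probe with the opposite sign (-0.28 against 0.14), neither past the threshold. Trim21, the cytosolic antibody receptor and an interferon-inducible gene, was above background on LPS 2 and LPS 4 only. Its intensity was 6.48, 6.78, 6.10 and 6.88 with LPS, against 6.22, 6.20, 6.08 and 5.97 with saline, with LPS 3 inside the saline range. It was not tested under the filter on dim probes, and without that filter its adjusted p in limma was 0.165.

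Genes that encode TRIM proteins under other names, or relatives of the family, gave 2 rises and 1 fall among 6 tested. The shares of all named genes were 9.74% and 9.78%. Pml (TRIM19), the organiser of nuclear bodies and an interferon-inducible gene, was at 10.56, 10.28, 8.95 and 10.25 with LPS, against 7.73, 7.58, 7.91 and 7.89 with saline. It rose by 2.24 (SE 0.30; limma adjusted p = 0.000849), with LPS 3 lowest. Mid1 (TRIM18), a microtubule-bound ligase, was at 8.36, 8.35, 7.65 and 8.57 with LPS, against 6.92, 7.26, 7.08 and 7.35 with saline, and rose by 1.08 (SE 0.20; limma adjusted p = 0.00483). Fsd2, a relative lacking the RING finger, fell by 1.22 (SE 0.26; limma adjusted p = 0.00991). Without LPS 3, Pml was at 2.6 and Mid1 at 1.29, and Cmya5 also fell.

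Of 28 tested genes that work with TRIM ligases in RIG-I and ISG15 signalling, 11 rose, 1 fell and 16 did not pass (median 0.19). Among all named genes 9.74% rose and 9.78% fell. Isg15, Ifih1 and Usp18 of this list are also on the interferon-stimulated list. Of the risen genes, Ifih1 was above background on 4 LPS arrays and 1 saline array, and Ikbke and Usp18 on 4 LPS and 3 saline arrays. The filter would not have kept these genes on the saline arrays alone. The rises were led by Isg15, the ubiquitin-like modifier (3.31, SE 0.35; limma adjusted p = 0.000242), and Dhx58, the RIG-I relative LGP2 (3.11, SE 0.40; limma adjusted p = 0.00068). Mavs, the adaptor downstream of RIG-I, fell (-0.56, SE 0.16; limma adjusted p = 0.0397). All 20 tested genes of the interferon-stimulated list rose, with a median of 2.45. Of the 23 on the array, Ifit1, Oas3 and Zbp1 were too dim to test. The rises were led by Oasl1 (3.86, SE 0.37; limma adjusted p = 0.000144), which exceeded background on a single saline array, and Ifit3 (3.48, SE 0.39; limma adjusted p = 0.000342). Like Ifih1 and Usp18, Oasl1 would not have met the filter on the saline arrays alone. The 7 tested interferon and sensing TRIM genes averaged 0.82 log2 units over saline on LPS 3, against 1.25 to 1.42 on the other LPS arrays, and LPS 3 was also lowest for the interferon-stimulated list. Without LPS 3, the counts of risen genes in these 3 lists stayed the same, with medians of 1.5, 0.22 and 2.64. They were 6 of 7 interferon and sensing TRIM genes, 11 of 28 partners and 20 of 20 interferon-stimulated genes. Of all named genes 10.7% then rose.

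Some TRIM genes are also expressed in leukocytes. Of the neutrophil markers, 3 of 9 on the array were tested and all 3 rose, where 9.74% of all named genes did. The largest rises were those of S100a8 (3.12, SE 0.36, limma adjusted p = 0.000391) and S100a9 (1.85, SE 0.28, limma adjusted p = 0.0019). All 3 were above background on 4 LPS arrays but on only 2 or 3 saline arrays. The filter would not have kept them on the saline arrays alone. The mean log2 intensity of these 3 was 8.59 to 9.04 with LPS and 6.22 to 7.71 with saline, and LPS 3 had the highest value. Camp, Ngp, Mpo, Elane, Cxcr2 and Mmp8 were too dim to test. Of 7 tested macrophage markers none rose and 3 fell, where 9.78% of all named genes did, led by C1qc (-1.20, SE 0.31; limma adjusted p = 0.0235) and Lyz2 (-1.18, SE 0.25; limma adjusted p = 0.00938), with a mean level of 8.75 to 9.26 with LPS and 9.48 to 9.55 with saline. The 1 tested lymphocyte marker, Cd3e, did not pass (0.06, SE 0.12; limma adjusted p = 0.763). Of 10 endothelial markers 2 fell against that share, Tek (-1.82, SE 0.27; limma adjusted p = 0.00168) and Flt1 (-1.11, SE 0.31; limma adjusted p = 0.0326), with a mean level of 9.02 to 9.79 with LPS and 9.72 to 10.15 with saline. Without LPS 3, 5 endothelial markers fell (Cldn5, Emcn and Pecam1 as well), where 11.9% of all named genes did. None of 9 cardiomyocyte markers passed (median -0.47; the smallest adjusted p in limma was 0.0733, for Myh6). Without LPS 3 all 3 tested neutrophil markers still rose, where 10.7% of all named genes did. The same 3 macrophage markers then fell, and no lymphocyte or cardiomyocyte marker passed (cardiomyocyte median -0.36). The part of these cell types in the TRIM changes was not tested.

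**Figure D4:**
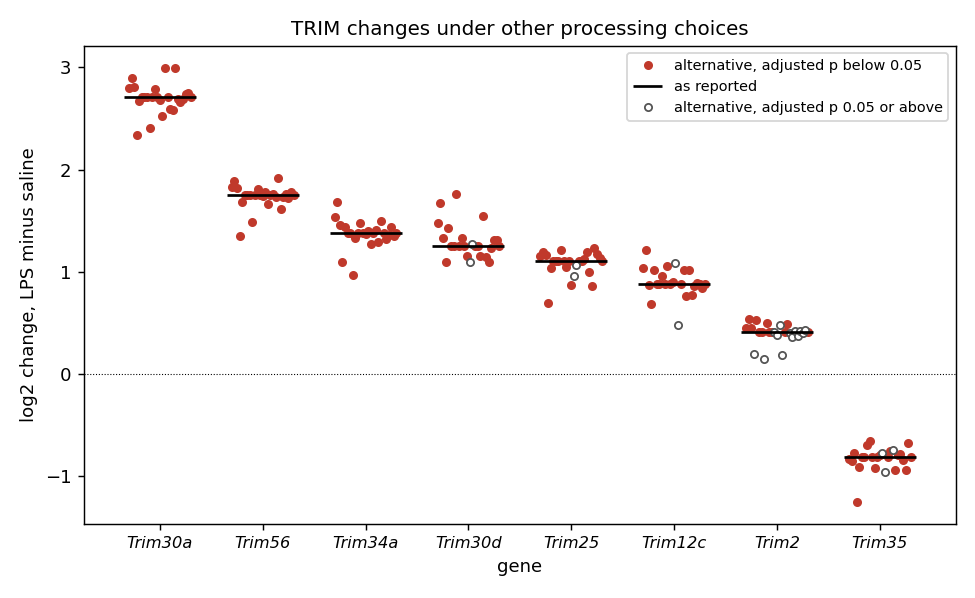
Log2 change, LPS minus saline (vertical axis), of the 8 TRIM genes past the threshold as reported (line) and under up to 25 other processing choices (points; filled where the adjusted p is below 0.05). Every gene keeps its sign, Trim30a, Trim56 and Trim34a stay past the threshold throughout, and Trim2 loses its call most often.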

How the data were processed

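The scanner files hold intensity at 635 nm of each spot and its local background, deposited without normalization and exported by GenePix Pro 4.1.1.4, per the file headers. The deposited value table shared 0 probe identifiers with them and was not used. Spot medians were corrected by normexp (offset 50), taken to log2 and quantile normalized (limma 3.58.1, R 4.3.3). Above background means a signal over the 95th percentile of 94 negative-control spots. Of 35078 gene probes 23017 matched 1 gene. Probes above background on at least 4 of 8 arrays were kept, the brightest standing for its gene, giving 8874 genes and 3249 unnamed probes. All were fitted in 1 limma model of LPS against saline (prior 4.13 of 10.13 degrees of freedom). Each change is a difference of group means (LPS minus saline, log2) with its standard error from that model. The offset shrinks changes of dim genes. The number of arrays limits precision.

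In 5 simulated runs on 8861 genes, the LPS against saline procedure recovered 31.9%, 71.6% and 97.9% of 1.5-, 2- and 4-fold changes, and 5.37% of its calls were false. Promoters are RefSeq's (GRCm38.p6). The members and lists were chosen with earlier results of these data known. Per-array values are given for TRIM genes past the threshold and for Trim54, Trim28, Trim24, Trim33 and Trim21. In other lists the genes given values are up to 2 called rises and up to 2 called falls of greatest size, or the smallest p where none was called. The fit over all kept probes and the lists without LPS 3 were added after the data were seen.
Alternatives covered the offset, no background correction, cyclic loess or median scaling, the filter, probe choice, spot means, array weights, the variance prior, blocks for scan day, slide series, the mark redip (carried by 4 arrays, meaning unstated) and replicate number, the first scan day alone, and each array left out.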

Additional observations from a re-analysis of the deposited data

How the results depend on the processing

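Trim30a, Trim34a and Trim56 passed under all 25 alternatives, Trim30a between 2.34 and 3.00 on the log2 scale. No TRIM gene past the threshold changed sign. Within the first scan day and in the fit blocked by slide series, 3 TRIM genes were higher and 0 lower in each. Then 289 and 489 of all named genes were higher and 156 and 269 lower, against 864 and 868. Both use fewer arrays for the contrast, and how far this accounts for the fewer calls was not tested. Slide series and treatment also overlap, LPS 2 to 4 being a series of their own. Median scaling over all gene probes gave 2 lower TRIM genes (Trim54 added), 6 higher (Trim2 lost), a TRIM median of -0.14, and 349 higher and 1131 lower genes among all named genes, the median of all genes being -0.35. Without the dim-probe filter 2 TRIM genes were lower (Trim62 added at -0.33, above background on 1 array), and Trim30b was higher on probes at background. Array weights gave 2 lower (Trim8 added at -0.70). Omitting 1 array gave 6 to 7 higher and 0 to 2 lower TRIM genes, 625 to 951 higher and 484 to 1056 lower genes overall. The lower genes were 484 without LPS 2, 499 without LPS 4 and 520 without saline 2. Other causes were not tested. Requiring all 8 arrays above background removed Trim3, Trim12c and Trim30d from the tested genes. The mean of all kept probes put Trim2 at 0.15. The number shared by same-numbered LPS and saline arrays was not treated as a pairing in the main fit (correlations of deviations 0.09, -0.14, 0.09 and -0.08). The same-numbered saline array was the best match for LPS 1 and LPS 3 but not for LPS 2 and LPS 4. These correlations cannot settle whether the arrays were paired. With this number as a replicate block 7 TRIM genes passed, Trim2 losing its call (limma adjusted p = 0.0719). Most gene probes lie near background, so 24 TRIM genes could not be tested.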
